A study of Homo sapiens with 2 samples.

Results

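The D and E cyclins with their G1 kinases are 8 genes, CCND1, CCND2, CCND3, CCNE1, CCNE2, CDK2, CDK4 and CDK6. They were chosen by name, as the rows whose Entrez gene ID belongs to these symbols, and all 8 were found among the 23033 genes with a value. The samples were control cells, labelled WT, and FZR1 ko cells, both labelled T-47D and both given 2 µg/ml of cisplatin, a drug that crosslinks DNA. T-47D is a luminal breast cancer cell line, and FZR1 ko stands for knockout of FZR1, made in this study by lentiviral delivery of Cas9 with an sgRNA, selection of stable cells and growth of the knockout line from a single cell. The time of treatment of these samples is not given in the sources used here, and cells without cisplatin were not analysed here. RNAseq was performed on 1 library per condition, so no difference below has a replicate check or a p-value, and an effect of the knockout, a trait of the 1 clone and a difference between cultures cannot be told apart.

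D cyclins are made when growth signals reach the cell, and they bind CDK4 and CDK6 to start the phosphorylation of the retinoblastoma protein RB1 in G1 phase. RB1 then lets go of E2F transcription factors, which switch on the E cyclins among other genes. E cyclins bind CDK2 and carry the cell into S phase, and CDK inhibitors such as p21 hold these kinases back. FZR1, also called CDH1, is the co-activator that keeps the APC/C ubiquitin ligase working in G1 phase, and FZR1-bound APC/C is itself switched off by G1 and S phase kinases.

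Levels are in FPKM, which counts fragments relative to transcript length and to all mapped fragments. The unit is scaled to length, so levels of different genes can be set side by side. The log2 ratio is the log2 of FPKM + 1 in FZR1 ko minus the log2 of FPKM + 1 in control, a difference between the libraries that understates the change of genes at low levels. It was computed over 13554 genes that reached 1 FPKM in either library, and a gene was counted when it differed at least 2-fold on this scale. Of these genes 6.72% were at least 2-fold lower and 6.78% at least 2-fold higher in FZR1 ko, and the median log2 ratio was -0.0048. FZR1 itself had 12.3 FPKM in control against 10.1 FPKM in FZR1 ko, which does not settle the genotype, since frameshift mutations need not remove the transcript. Among 12 markers of luminal breast cells, 6 were under 1 FPKM in each library. They included the receptor genes ESR1 (0.04 and 0.13 FPKM in control and FZR1 ko) and PGR (0.01 FPKM and listed at 0), and GATA3 (0.31 and 0.15 FPKM). The rest of the 6 were CDH1, which encodes E-cadherin (0.69 and 0.62 FPKM), KRT19 (0.2 and 0.16 FPKM) and SPDEF (0.19 and 0.31 FPKM). The 6 markers above 1 FPKM were KRT8 and KRT18, at 829 and 552 FPKM in control, XBP1 (93.4 and 72.6 FPKM), TFF1 (9.80 and 7.52 FPKM), FOXA1 (5.07 and 4.65 FPKM) and EPCAM (3.90 and 11.5 FPKM). As a set, the luminal markers thus do not bear out the label of a luminal line, and whether the label is right was not tested. Of 10 basal and mesenchymal markers, KRT5, KRT14, TP63 and SPARC were under 1 FPKM in each library, and VIM was the highest, at 315 FPKM in control against 295 FPKM in FZR1 ko. Of this list, CDH2 (2.97 and 15.3 FPKM) and AXL (16.0 and 37.8 FPKM) were at least 2-fold higher in FZR1 ko, and of the luminal markers EPCAM was, though not with a pseudocount of 5 FPKM in place of 1 (log2 ratio 0.89). The summed level of 10 fibroblast, endothelial and immune markers was 12.0 FPKM in control against 9.14 FPKM in FZR1 ko, with CD3E and COL1A2 listed at 0 in each. Of these, CDH5 was at least 2-fold lower in FZR1 ko (3.64 and 0.33 FPKM), but not with a pseudocount of 5 FPKM (-0.70), while COL1A1 had 5.13 and 6.25 FPKM. The part of these cell type markers in the results below was not tested.

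Of the 8 genes, 7 passed the filter of 1 FPKM, and CCND2 did not. CCNE1 and CCNE2 were at least 2-fold lower in FZR1 ko, CDK6 was at least 2-fold higher, and the remaining 4 were between these limits. The call of CDK6 was lost with a pseudocount of 5 FPKM (log2 ratio 0.90) and relative to genes of like span on the chromosome (0.63), while those of CCNE1 and CCNE2 were kept in both. The median log2 ratio of the 7 genes was -0.16, and -0.070 relative to genes of like mRNA length. Among all genes with a mean of at least 10 FPKM, a level that both E cyclins exceed and CDK6 does not, 5.68% were at least 2-fold lower and 3.82% at least 2-fold higher. Of the 6 genes of the group at that level 2 were lower and 0 higher, too few to read as a share. In bulk RNA, fewer cells in a phase of the cell cycle and less RNA per cell cannot be told apart.

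**Figure D1:**
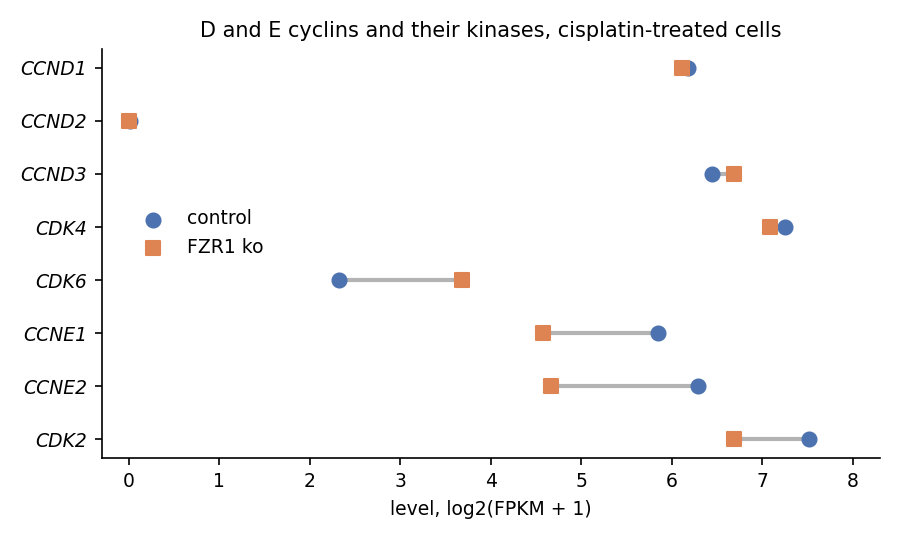
Level of each gene as log2(FPKM + 1) on the x axis in the control library (circles) and the FZR1 ko library (squares), 1 library each, with the grey line joining them. CCNE1 and CCNE2 lie lower in FZR1 ko by 1.27 and 1.63 on this scale and CDK6 lies higher by 1.36, while CCND1 and CDK4 nearly coincide and CCND2 lies at 0.

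Promoters are shown first, for CCNE1 and CDK6, which differed at least 2-fold, and for CDK4, which did not. RefSeq promoter sequences (GRCh38.p14) were matched for 4 of the 8 genes, CCNE1, CCND3, CDK4 and CDK6, and not for CCND1, CCND2, CCNE2 and CDK2. The sequences run 5′ to 3′ on the strand of the gene and end before the outermost first exon of the gene in GENCODE 44, which for CDK4 starts further upstream than in RefSeq. Capitals mark the GC box, GGGCGG, which binds SP1, and the E box, CACGTG, which binds MYC with MAX, on either strand. The CCNE1 promoter is on the plus strand at chr19:29811741-29811990, the promoter of the first CDK6 start is on the minus strand at chr7:92836574-92836823, and the CDK4 stretch, shown for its E boxes, is on the minus strand at chr12:57752448-57752560.
CCNE1: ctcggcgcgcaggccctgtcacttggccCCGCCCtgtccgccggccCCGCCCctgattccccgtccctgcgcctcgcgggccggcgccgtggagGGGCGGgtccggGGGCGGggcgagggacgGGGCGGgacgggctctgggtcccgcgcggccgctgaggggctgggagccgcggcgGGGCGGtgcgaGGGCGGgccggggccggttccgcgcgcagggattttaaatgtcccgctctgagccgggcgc
CDK6: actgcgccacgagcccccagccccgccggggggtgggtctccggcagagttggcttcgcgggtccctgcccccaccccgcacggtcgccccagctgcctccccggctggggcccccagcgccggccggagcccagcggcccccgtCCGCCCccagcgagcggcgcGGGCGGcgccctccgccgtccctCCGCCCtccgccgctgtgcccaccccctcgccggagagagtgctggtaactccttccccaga
CDK4: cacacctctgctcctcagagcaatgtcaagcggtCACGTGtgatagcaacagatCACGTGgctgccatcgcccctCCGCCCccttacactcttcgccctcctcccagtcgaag
The CCNE1 window of 250 bases held 7 GC boxes and the CDK6 window shown held 3, while that of the other CDK6 start held 0. Of the genes not past the 2-fold limit, CDK4 held 3 in its 250 bases, and CCND3 held 5, 2 and 0 at its 3 starts. At least 1 GC box was present in 42.5% of all 34943 promoter windows of this length, a share that does not scale these counts. The 250 bases before the CDK4 start held 3 E boxes, of which 2 lie in the stretch shown, and 6.32% of all windows held at least 1. The E2F site was searched as TTTCCCGC, TTTCGCGC, TTTGCCGC and TTTGGCGC on both strands, letters that 2.77% of all windows held, and none of the matched windows of the 4 genes held any of them. The AP-1 site TGACTCA, present in 4.22% of all windows, was likewise not found in them. At such shares most windows hold neither site, and bases after the start of the gene were not searched. Finding none therefore does not show that these genes lack such sites, and the matches describe letters only.

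The D cyclins, which link growth signals to CDK4 and CDK6, were nearly level between the libraries. CCND1 (Entrez gene 595, chr11:69641156-69654474 on hg38) had 71.7 FPKM in control against 68.5 FPKM in FZR1 ko, which gave a log2 ratio of -0.066. CCND3 (gene 896, chr6:41934933-42050035) had 85.9 FPKM in control against 102 FPKM in FZR1 ko, which gave a log2 ratio of 0.24. CCND2 (gene 894, chr12:4273762-4305353) had 0.01 FPKM in control against a listed 0 in FZR1 ko. Cyclin D mRNA in these cells was thus that of CCND1 and CCND3. CCND1 made up 45.5% of the summed D cyclin FPKM in control and 40.2% in FZR1 ko, and CCND3 made up 54.5% and 59.8%. The sum was 157.6 FPKM in control against 170 FPKM in FZR1 ko, which gave a log2 ratio of 0.11. More than 90% of the genes kept had a lower level than CCND1 in each library (90.4% in control and 90.5% in FZR1 ko).

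The kinases of the D cyclins differed from each other. CDK4 (gene 1019, chr12:57747727-57752310) had 152 FPKM in control against 135 FPKM in FZR1 ko, which gave a log2 ratio of -0.16. CDK6 (gene 1021, chr7:92604921-92836573), the close relative of CDK4, had 4.02 FPKM in control against 11.9 FPKM in FZR1 ko, 2.95 times the control level, with a log2 ratio of 1.36 whose call was lost in the cases given above. Only 2.47% of the genes kept had a log2 ratio as high. CDK6 stayed the minor kinase by mRNA in each library. It made up 2.58% of the summed FPKM of CDK4 and CDK6 in control and 8.05% in FZR1 ko, and the quotient of CDK4 to CDK6 went from 37.7 to 11.4. The sum of both kinases was 156 FPKM in control against 147 FPKM in FZR1 ko, so that D cyclin FPKM per FPKM of these kinases was 1.01 and 1.16.

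The E cyclins, which activate CDK2 at the entry into S phase, were both lower in FZR1 ko, and CCNE2 had the largest log2 ratio of the 8 genes in absolute size. CCNE1 (gene 898, chr19:29811991-29824312) had 56.7 FPKM in control against 22.9 FPKM in FZR1 ko, 2.47-fold lower, with a log2 ratio of -1.27. CCNE2 (gene 9134, chr8:94880224-94896693) had 77.3 FPKM in control against 24.3 FPKM in FZR1 ko, 3.18-fold lower, with a log2 ratio of -1.63. Of the genes kept, 3.34% had a log2 ratio as low as that of CCNE1 and 1.47% as low as that of CCNE2. The higher member in control was CCNE2, by a factor of 1.36, and in FZR1 ko the quotient was 1.06. Their sum was 134 FPKM in control against 47.3 FPKM in FZR1 ko, which gave a log2 ratio of -1.48. Against the D cyclins, E cyclin FPKM went from 0.85 to 0.28 per FPKM of D cyclin.

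CDK2 (gene 1017, chr12:55966830-55972789), the kinase of the E cyclins, was the most abundant of the 8 mRNAs in control. It had 182 FPKM in control against 103 FPKM in FZR1 ko, 1.78-fold lower, with a log2 ratio of -0.82 that did not reach the 2-fold limit. A log2 ratio as low was found in 9.997% of the genes kept. E cyclin FPKM per FPKM of CDK2 was 0.74 in control and 0.46 in FZR1 ko, so the E cyclins were lower by more than their kinase.

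**Figure D2:**
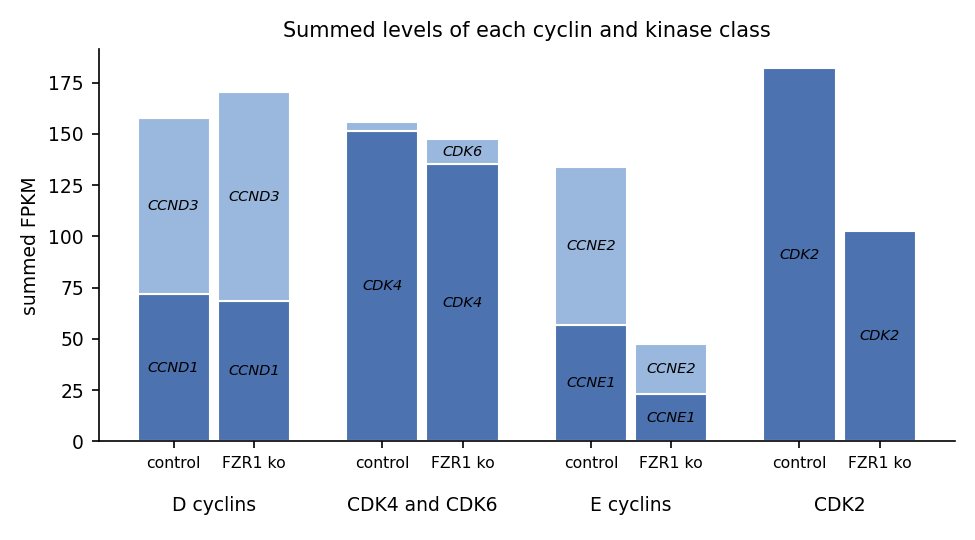
Summed FPKM (y axis, from 0) of the D cyclins, of CDK4 with CDK6, of the E cyclins and of CDK2 in the control and FZR1 ko libraries, with each bar divided by gene. The E cyclin bar goes from 134 to 47.3 FPKM and the CDK2 bar from 182 to 103 FPKM, while the D cyclin bar goes from 157.6 to 170 FPKM and CCND2 is too low to be seen.

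By level, the order in control was CDK2, CDK4, CCND3, CCNE2, CCND1, CCNE1, CDK6 and CCND2. In FZR1 ko it was CDK4, CDK2, CCND3, CCND1, CCNE2, CCNE1, CDK6 and CCND2. CDK2 and CDK4 changed places, as did CCNE2 and CCND1. In FZR1 ko, CCND3 at 102 FPKM and CDK2 at 103 FPKM were nearly equal, and so were CCNE1 at 22.9 FPKM and CCNE2 at 24.3 FPKM. Without replicates the spread around neighbouring levels is unknown.

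**Figure D3:**
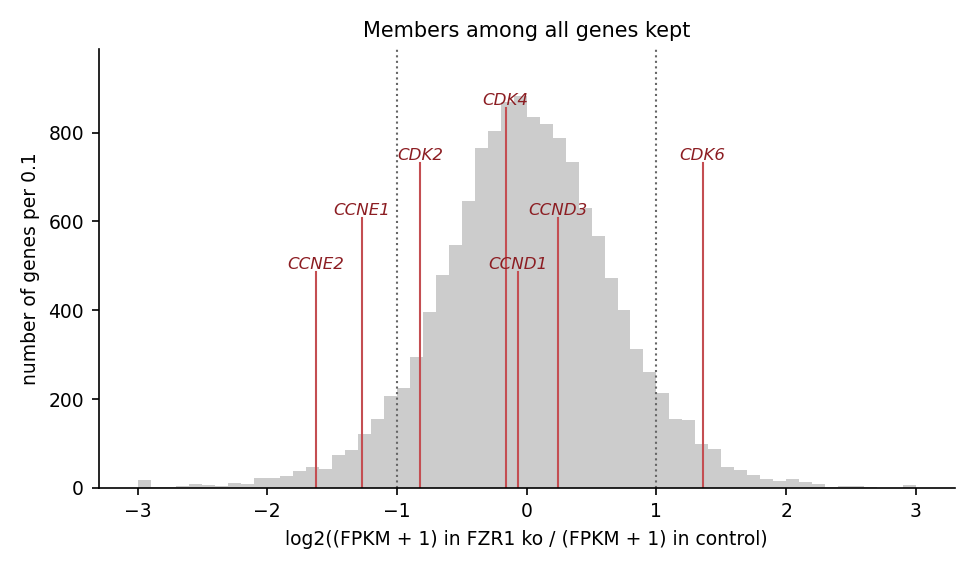
Number of genes (y axis) per 0.1 of the log2 ratio (x axis) for the 13554 genes kept, with genes beyond 3 in either direction counted in the outermost bars, and red lines at the 7 named genes that passed the filter. Dotted lines mark the 2-fold limits, with CCNE2 and CCNE1 beyond the lower limit, CDK2 at -0.82 inside it, and CDK6 beyond the upper limit.

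The length of a gene on the chromosome moved with the log2 ratio across the transcriptome. The 11550 protein-coding genes kept were divided into 10 groups of increasing gene span, from the first to the last annotated base, introns included. The median log2 ratio was -0.22 in the group of the shortest genes, up to 4.88 kb, and 0.73 in the group of the longest, from 131 kb on. In the shortest group 2.34% of genes were at least 2-fold higher in FZR1 ko and 15.0% at least 2-fold lower. In the longest group 28.8% of genes were at least 2-fold higher in FZR1 ko and 0.346% at least 2-fold lower. CDK6 spans 232 kb and is in this group, where 128 of 1155 genes (11.1%) had a log2 ratio as high as its 1.36. Relative to the median of its group, CDK6 was higher by 0.63 and no longer past the 2-fold limit. CCNE1 (12.3 kb) and CCNE2 (16.5 kb) are in groups 3 and 4, with medians of -0.21 and -0.16. Of the genes in these groups, 9.78% and 7.18% were at least 2-fold lower. There, 42 of 1155 genes (3.64%) had a log2 ratio as low as that of CCNE1 and 14 of 1156 (1.21%) as low as that of CCNE2. Relative to those medians, CCNE1 was lower by 1.06 and CCNE2 by 1.47 on the log2 scale, and both remained past the 2-fold limit. CDK2, with a span of 5.96 kb, had 14.5% of its group at a log2 ratio as low, and its value relative to the group was -0.61. CCND1, CCND3 and CDK4 had values of 0.14, -0.18 and 0.054 relative to their groups, each of the opposite sign to its log2 ratio. The part of gene span in the values of these genes was not tested, and that of CCND3 depends on its start, since the RefSeq table gives promoters at 3 places.

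Some of these genes share exon sequence with a gene on the opposite strand, and the sources used here do not say whether strand was used in the counting. In the GENCODE 44 annotation, 1629 of the 4397 exonic bases of CCNE2 overlap INTS8, which had 11.5 FPKM in control against 18.5 FPKM in FZR1 ko and so differed the other way from CCNE2. For CDK4, 1369 of 3094 exonic bases overlap TSPAN31, which had 12.9 and 5.80 FPKM. For CDK2, 565 of 3887 exonic bases overlap the lncRNA ENSG00000258554, not matched to a value here, and 89 overlap PMEL, at 0.97 and 0.74 FPKM. CCND1 shares 497 bases with LTO1, at 13.1 and 12.0 FPKM. CCNE1 shares no exonic base with another gene. Among the 3 nearest protein-coding genes kept on each side of CCNE1 the log2 ratios ran from -0.53 to 0.96, and around CCNE2 they ran from -0.93 to 0.64, so none of these 12 neighbours was 2-fold lower. Around CDK6 they ran from -1.23 to 1.11, with RBM48 (20.1 and 7.96 FPKM) past the lower limit and SAMD9L (0.46 and 2.15 FPKM) past the upper.

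Cyclins of later phases were compared as relatives of these genes. Beside the counts in this and the following lists, 6.72% of all genes kept were at least 2-fold lower and 6.78% at least 2-fold higher. The lists are too short for their counts to be read as shares. CCNA2, the S and G2 phase cyclin, had 45.7 FPKM in control against 40.8 FPKM in FZR1 ko (log2 ratio -0.16), and CCNB1, a mitotic cyclin, had 85.2 and 69.7 FPKM (-0.29). CCNB2 had 48.7 and 27.8 FPKM (-0.79) and CDK1, the mitotic kinase, had 116 and 80.8 FPKM (-0.52). These were the 4 of 6 genes kept in that list, none past the 2-fold limit, with a median of -0.40 that became -0.22 relative to gene span and also -0.22 without the filter, while CCNA1 was listed at 0 in each library and CCNB3 had at most 0.05 FPKM. Per FPKM of CCNA2, CCNE1 went from 1.24 to 0.56 and CCNE2 from 1.69 to 0.60. Of 25 other cyclins and CDKs kept, 2 were at least 2-fold lower and 2 at least 2-fold higher, with a median of -0.064 that became -0.0047 without the filter, -0.13 relative to gene span, -0.11 relative to GC content and 0.0030 relative to mRNA length. Those lower were CCNT1 (34.4 and 15.9 FPKM) and CDK9 (97.8 and 47.4 FPKM), the cyclin and kinase of the elongation factor P-TEFb. Those higher were CCNY (1.25 and 5.25 FPKM), which spans 326 kb, and CDK18 (2.29 and 6.84 FPKM). Relative to gene span, CDK9 (-0.81) and CCNY (0.75) were no longer past the limit and CCNT1 (-1.01) and CDK18 (1.31) were, and CDK9 was not relative to mRNA length either (-0.93). With a pseudocount of 5 FPKM none of the 4 was past it.

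CDK inhibitors, which bind the kinases described here, were at least 2-fold lower in FZR1 ko for 3 of 7 genes and at least 2-fold higher for none, with a median of -0.60 that became -0.38 relative to gene span. CDKN1A, which encodes p21, had 319 FPKM in control against 77.2 FPKM in FZR1 ko (log2 ratio -2.03), and its FPKM per FPKM of CDK2 went from 1.75 to 0.75. CDKN2B and CDKN2D, INK4 inhibitors of CDK4 and CDK6, had 55.2 and 13.3 FPKM (-1.97) and 17.3 and 3.61 FPKM (-1.99). CDKN1B had 43.0 and 28.1 FPKM (-0.60), CDKN1C had 83.2 and 63.3 FPKM (-0.39), CDKN2C had 51.9 and 48.9 FPKM (-0.084) and CDKN2A had 240 and 249 FPKM (0.053).

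The RB family, E2F and DP genes, which stand between the D and the E cyclins, were at least 2-fold lower in FZR1 ko for 3 of 13 genes and at least 2-fold higher for none, with a median of 0.099 that became -0.15 relative to gene span, -0.062 relative to mRNA length, 0.042 relative to GC content and 0.062 with a pseudocount of 5 FPKM. E2F1, an activator of the E cyclin genes, had 83.4 FPKM in control against 38.8 FPKM in FZR1 ko (log2 ratio -1.09). E2F7 and E2F8, repressors that are themselves E2F targets, had 28.4 and 13.1 FPKM (-1.06) and 25.1 and 9.91 FPKM (-1.26). Relative to gene span the count of lower genes fell to 2, as E2F1 (-0.88) was no longer past the limit while E2F7 (-1.12) and E2F8 (-1.10) were. With a pseudocount of 5 FPKM it was also 2, without E2F7 (-0.88). With a pseudocount of 0.1 FPKM it stayed 3, and 1 gene was higher, the RB family gene RBL1 (2.92 and 6.64 FPKM). Per FPKM of E2F1, CCNE1 was at 0.68 in control and 0.59 in FZR1 ko, and CCNE2 at 0.93 and 0.63. Most of 21 other E2F target genes of G1/S act in DNA replication or nucleotide supply. Of the 21, none was at least 2-fold lower and 1 was at least 2-fold higher. Their median of -0.037 became 0.097 relative to gene span and -0.059 relative to mRNA length. PCNA, the sliding clamp of replication, was the lowest at a log2 ratio of -0.62 (328 and 212 FPKM), and POLA1, a polymerase subunit whose gene spans 303 kb, was the highest at 1.41 (3.01 and 9.63 FPKM). POLA1 was not past the limit relative to gene span (0.68) or with a pseudocount of 5 FPKM (0.87).

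Among 6 genes that activate or restrain the G1 kinases, none passed the 2-fold limit, and the median was -0.17, which became -0.26 relative to gene span and -0.088 relative to mRNA length. MNAT1, the assembly factor of the CDK-activating kinase, came nearest at 2.37 and 5.72 FPKM (log2 ratio 0.996), with a span of 235 kb, and it was past the limit with centring on the median of all genes, with rescaling, with a pseudocount of 0.1 FPKM and relative to mRNA length. Of 9 genes for the turnover of D and E cyclins, 1 was at least 2-fold higher and none lower, with a median of 0.24 that became 0.085 relative to mRNA length. That gene was AMBRA1, the ligase adaptor that marks D cyclins for destruction, at 3.24 and 8.63 FPKM (1.18), with a span of 198 kb. It was not past the limit relative to gene span (0.45) or with a pseudocount of 5 FPKM (0.73), so that 0 of the 9 were then called. FBXW7, which marks cyclin E, had 2.74 and 2.81 FPKM. Of 10 transcription factors known at the CCND1 promoter, 3 were at least 2-fold lower in FZR1 ko, with a median of -0.37 that became -0.74 over the 9 genes at 1 FPKM or more in both libraries. These were the AP-1 genes JUN (153 and 32.9 FPKM), FOS (16.0 and 1.86 FPKM) and FOSL1 (182 and 75.1 FPKM), beside the log2 ratio of -0.066 of CCND1. By sign, 6 of the 10 were lower in FZR1 ko and 4 higher, with 0 at least 2-fold higher and a largest log2 ratio of 0.76.

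**Figure D4:**
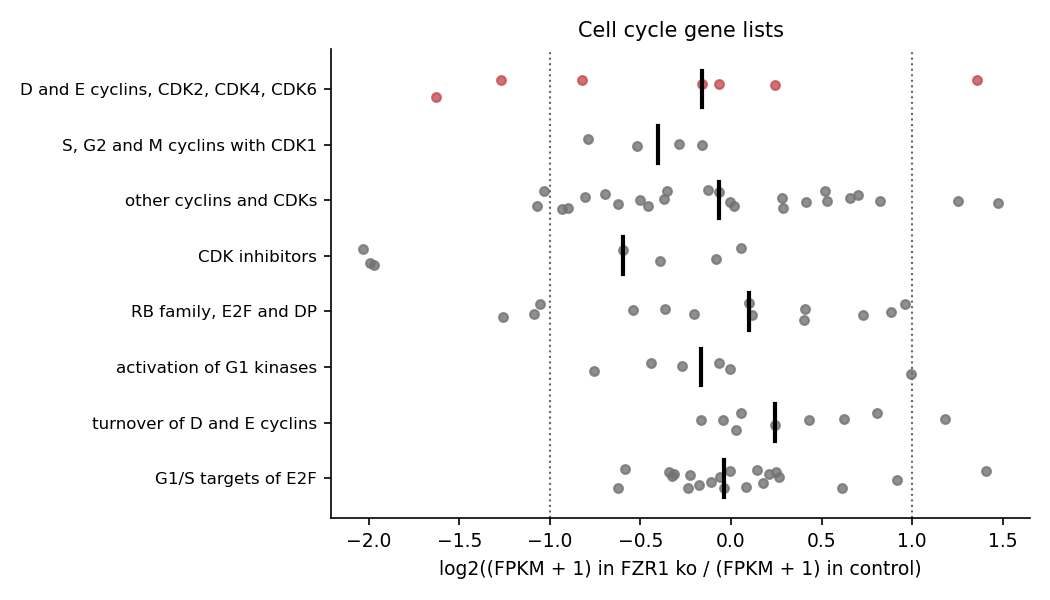
Log2 ratio (x axis) of each gene kept in the D and E cyclin group (red) and in 7 other cell cycle lists (grey), with a black bar at each median and dotted lines at the 2-fold limits. CCNE2 at -1.63 is lower than every gene of these 7 lists outside the CDK inhibitors, among which CDKN1A, CDKN2B and CDKN2D lie near -2, and the factors at the CCND1 promoter are not plotted.

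Among the 83 genes kept in the 7 cell cycle lists, which leave out the factors at the CCND1 promoter, the reference genes and the cell type markers, those nearest to CCNE2 in log2 ratio over the 2 libraries were CDKN2B (-1.97), CDKN2D (-1.99) and E2F8 (-1.26). Their distances from CCNE2 were 0.34, 0.36 and 0.37. For scale, 14 widely expressed reference genes had log2 ratios from -1.63, for B2M at 1309 and 422 FPKM, to 0.74, with a median of 0.20 that became 0.33 relative to gene span. B2M was the only 1 of them past the 2-fold limit, and its log2 ratio was as low as that of CCNE2.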

How the data were processed

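The authors extracted total RNA with TRIZOL, sequenced it on the BGISEQ-500 platform, and used Bowtie2 to align the reads to transcripts of hg38 (UCSC) and RSEM to quantify them. The submitters' processing notes give Bowtie2 2.2.5, which differs from the version in the methods, and also name Trimmomatic 0.36 and HISAT2 2.1.0. Annotation, filters, strand and fragment length are not given in the sources used here. The authors deposited FPKM per Entrez gene, to 2 decimals, with 1 library per condition. The depth is unknown, so no interval is given. Of 24663 rows, 1630 held no value, and 22925 of the 23033 genes matched a RefSeq symbol of GRCh38.p14, the same build. No other column of sample values was present.

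Log2 ratios used a pseudocount of 1 FPKM, without a test, as 1 library per condition allows none. Because the values are FPKM, the log scale was used. The computation was tested on simulated data with planted 4-fold changes. That checks the code, and not how far calls from 1 library per condition can be trusted. The 8 genes and all lists were chosen with earlier results of these data known. Genes named were the 8, FZR1, cell type markers, all CDK inhibitors and later cyclins, and in each other list those past 2-fold or the largest where none was. For CCNE2, the 3 genes nearest in log2 ratio within the 7 cell cycle lists were named. FBXW7, PCNA, RBL1, genes that only an alternative called, and neighbouring and overlapping genes were chosen after their values were seen. Gene span came from RefSeq, exons, mRNA length and GC content from GENCODE 44 (11454 of 11550 protein-coding genes matched). Alternatives were a pseudocount of 0.1 or 5 FPKM, other filters, centring, rescaling to the same sum and other thresholds. Python 3.11.15, numpy 2.4.6, pandas 2.3.3 and matplotlib 3.10.9 were used.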

Additional observations from a re-analysis of the deposited data

How the results depend on the processing

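No paired analysis was possible because control and FZR1 ko are 1 library each, and leaving out a library would leave no comparison. Trends with gene span, mRNA length and GC content were chosen after seeing the data. Under the alternatives CCNE1 ranged from -1.31 to -1.06, CCNE2 from -1.66 to -1.47 and CDK2 from -0.86 to -0.61 in log2 ratio, each on the same side of the 2-fold limit. CDK6 ranged from 0.63 to 1.54. It was not past the limit with a pseudocount of 5 FPKM (0.90) or with the trend of gene span removed (0.63), so 0 genes of the group were then higher. At a 4-fold threshold 0 genes of the group were lower and 0 higher. Removing the span trend turned CCND1 to 0.14, CCND3 to -0.18 and CDK4 to 0.054. It also turned the medians of the RB family, E2F and DP list to -0.15, of the G1/S targets to 0.097 and of the basal and mesenchymal markers to -0.051. Removing the mRNA length trend turned the RB family, E2F and DP list to -0.062 and the other cyclins and CDKs to 0.0030. Without a filter the luminal, the basal and mesenchymal, and the fibroblast, endothelial and immune markers had medians of -0.032, -0.060 and 0.00. The last had 0.24 with 1 FPKM in both libraries, where COL1A1 was the only gene kept, and -1.54 with a pseudocount of 0.1 FPKM. Of all genes, 911 were lower and 919 higher. A pseudocount of 0.1 FPKM gave 1358 lower and 1460 higher, and one of 5 FPKM gave 270 lower and 183 higher. A 4-fold threshold gave 89 and 61, and a 1.5-fold threshold 2387 and 2440, by construction. With the span trend removed there were 556 lower and 398 higher, and with the mRNA length trend removed 672 lower and 610 higher, among protein-coding genes only. The cause of the changes not said to be by construction was not tested. In all, 207 values kept their direction and side of the limit, or stayed within 1.5 times for a count. Some list medians among them still moved by over 1.5 times. Those of cell cycle lists and reference genes are given with the lists. The luminal markers went from 0.082 to 0.16 with the span trend removed, and with a pseudocount of 5 FPKM the basal and mesenchymal markers went from 0.21 to 0.11 and the fibroblast, endothelial and immune markers from -0.69 to -0.21. A pseudocount of 0.1 FPKM also added calls, among them CCNG2 (lower) and CDK19, TCF7L2 and PDGFRB (higher). Of single genes in the lists, 2-fold calls were lost only with a pseudocount of 5 FPKM or a trend removed, apart from CDH5, which the filter of 1 FPKM in both libraries left out. Rescaling moved the median of all genes by 0.0054. The unknown depth limits CCND2 and other genes at low levels most.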
